A study of Callithrix jacchus with 4 samples.

Results

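The 6 genes described here are the neurotrophin ligands BDNF and NTF3, the receptor tyrosine kinases NTRK2 (TrkB) and NTRK3 (TrkC), the shared receptor NGFR (p75) and the sorting receptor SORT1 (sortilin). They were taken by symbol from a table of 35205 genes, and all 6 had a row and passed the filter on low counts. RNA was sequenced from brain of common marmosets (Callithrix jacchus), a small New World primate, at postnatal day 5. There were 2 libraries from wild-type animals and 2 from animals with a mutation of FMR1 made with CRISPR/Cas9. The series' design describes forebrain samples, while each library's label says only brain. The mutant allele, the sex and the litter of the animals are not stated in the sources used here. The labels do not tie each library to an animal of its own. The p-values therefore weigh genotype against the spread between these libraries, much of it estimated across genes, and that spread may be technical.

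Neurotrophins are secreted as precursors that are cleaved to mature factors. Mature BDNF binds TrkB and NT-3, the product of NTF3, binds TrkC, and both receptors signal through the ERK, PI3K and phospholipase C gamma pathways to support survival, dendrite growth and synaptic plasticity. Uncleaved precursors bind p75 together with sortilin, a pair linked to cell death and synaptic weakening. In the brain BDNF is made mainly by glutamatergic neurons and its transcription rises with neuronal activity. TrkB is made by neurons and, as a truncated form without the kinase, by astrocytes. Counts per gene do not separate the full-length and truncated transcripts of NTRK2 or NTRK3.

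The libraries held 12331639 to 13455702 counts. FMR1 itself was counted 1144 and 966 times in the wild-type and 1062 and 1603 times in the mutant libraries, so its groups overlapped. Markers of glutamatergic neurons, GABA neurons, astrocytes and striatal projection neurons were present in all libraries, and the 5 hindbrain genes were at 0 to 3 counts. A pair of libraries stood apart in markers of neighbouring tissue. Wild-type replicate 1 held 1272 counts of the thalamic gene TCF7L2 against 118 to 139 in the other libraries, and mutant replicate 1 held 1244 counts of the choroid plexus gene TTR against 8 to 89. Of the other choroid plexus genes, KCNJ13 (43 counts) and CLIC6 (57 counts) were also highest in mutant replicate 1. FOLR1 (40 counts there, 71 in wild-type replicate 1) and PRLR (65 counts there, 81 in mutant replicate 2) were not. The values of the 6 genes are therefore also given without a library that changed their direction or moved them by over 1.5 times.

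None of the 6 genes passed the test between genotypes (edgeR quasi-likelihood, Benjamini-Hochberg adjusted p under 0.05 over all 16956 genes tested), against a background of 2.23% of all genes tested. DESeq2 and limma-voom called 0 of the 6 as well. At an unadjusted p under 0.05 there was 1 gene by edgeR, NGFR, where 13.4% of all genes tested were under that level. All 6 fitted values were below 0, as were 50.7% of those of all genes. The median log2 fold change, mutant over wild-type, was -0.20 for the 6 genes and -0.00396 for all genes tested. The median of the 6 was -0.32 without wild-type replicate 1 and -0.30 without mutant replicate 2. The genes differed widely in how precisely they were measured, and their intervals are given with each gene.

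**Figure D1:**
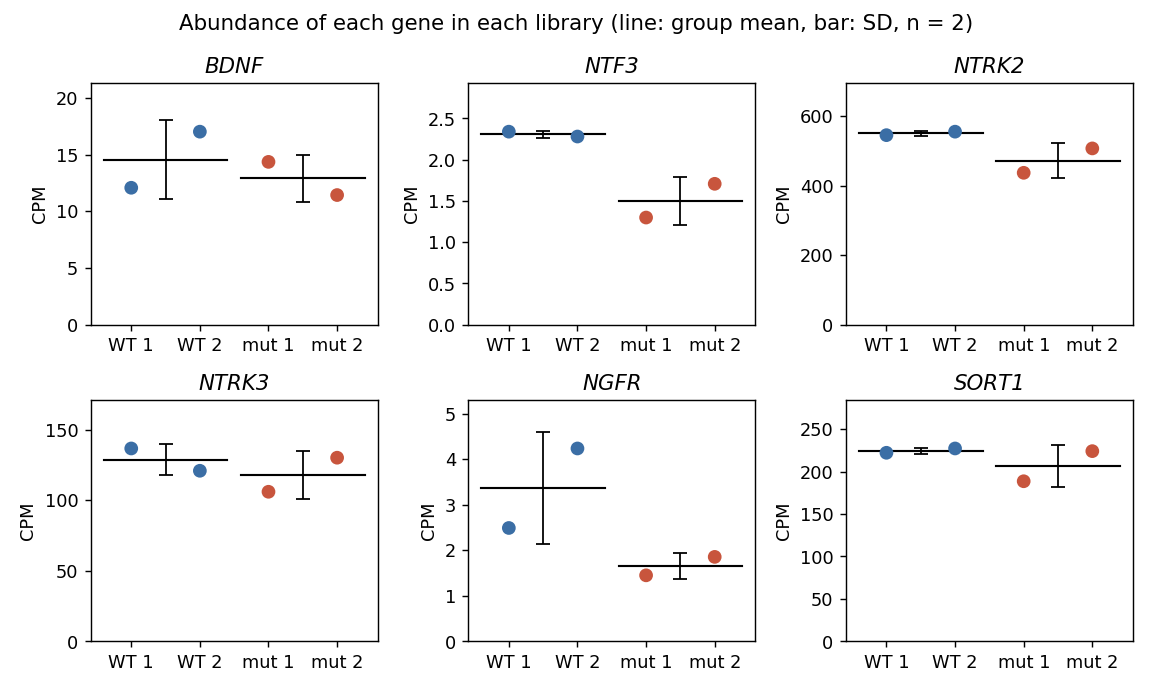
Abundance of the 6 genes in CPM (counts scaled by library size, vertical axis from 0) in wild-type (WT) libraries 1 and 2 and mutant (mut) libraries 1 and 2; lines are group means and bars the SD of 2 libraries. For NTF3, NTRK2 and NGFR both mutant points lie below both wild-type points, a pattern shown by 21.8% of all genes tested. For BDNF, NTRK3 and SORT1 the groups overlap.

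Among the ligands, BDNF did not separate the genotypes. Its counts were 160 and 209 in the wild-type libraries (replicates 1 and 2, in that order throughout) and 188 and 154 in the mutant libraries. As CPM, counts scaled by library size, these were 12.1 and 17.0 in the wild-type and 14.4 and 11.4 in the mutant libraries. Both the highest and the second lowest value were wild-type, so the groups overlapped. Group means were 14.5 ± 3.50 CPM for wild-type and 12.9 ± 2.07 CPM for mutant (SD, n = 2 each). On the log2 scale the change was -0.17 (SE 0.21, 95% interval -0.59 to 0.25, edgeR adjusted p = 0.792). The interval spans a mutant level of 0.662 to 1.19 times the wild-type level. The spread within the wild-type group was itself larger than counting error, with replicate 2 at 1.41 times replicate 1 (exact binomial test, two-sided, p = 0.00290 adjusted over 12 within-group comparisons). The direction rested on wild-type replicate 2: leaving it out gave 0.10, and leaving out wild-type replicate 1 gave -0.40 (adjusted p = 0.538). Leaving out mutant replicate 1 gave -0.35 and leaving out mutant replicate 2 gave -0.0146. A long noncoding gene that overlaps BDNF in the RefSeq annotation of assembly calJac240_pri, LOC103796261, held 4, 0, 1 and 0 counts in the same library order, so few reads were assigned to it.

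NTF3, which encodes NT-3, was rare in all libraries. It was counted 31 and 28 times in the wild-type and 17 and 23 times in the mutant libraries, or 2.34 and 2.28 against 1.30 and 1.71 CPM. Both mutant values lay below both wild-type values, a pattern shown by 21.8% of all genes tested. The log2 fold change was -0.62 (SE 0.44, 95% interval -1.52 to 0.29), which did not pass (edgeR adjusted p = 0.606). With 40 counts over the mutant and 59 over the wild-type libraries, the ratio of counts was 0.652, with an exact 95% counting interval of 0.425 to 0.990. That interval covers counting error only, since reads without molecular identifiers are not independent molecules. The wider interval of the fit, which adds the spread between libraries, includes no change.

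Of the receptors, NTRK2 was the most precisely measured. Its counts were 7232 and 6824 in the wild-type and 5726 and 6838 in the mutant libraries, or 546 and 556 against 437 and 507 CPM. The wild-type libraries lay close together and both mutant libraries lay below them, as for 21.8% of all genes tested. The means were 551 ± 7.10 CPM (SD, n = 2) and 472 ± 49.7 CPM (SD, n = 2). The log2 fold change was -0.22 (SE 0.11, 95% interval -0.45 to 0.01, edgeR adjusted p = 0.398), a mutant level of 0.731 to 1.01 times wild-type. Counting error was small beside the difference between the mutant libraries, where replicate 2 was at 1.16 times replicate 1 (exact binomial test, adjusted p = 9.85e-16). The size depended on which mutant library was used, with a log2 fold change of -0.12 without mutant replicate 1 and of -0.33 without mutant replicate 2 (adjusted p = 0.238).

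NTRK3 overlapped between the genotypes. It was counted 1811 and 1484 times in the wild-type and 1388 and 1753 times in the mutant libraries, or 137 and 121 against 106 and 130 CPM. Mutant replicate 1 was the lowest and wild-type replicate 1 the highest of the 4. Its change was -0.13 on the log2 scale (SE 0.13, 95% interval -0.38 to 0.13) and missed the threshold (edgeR adjusted p = 0.734). Mutant replicate 1 set its direction, and without that library the value was 0.01. It was -0.03 without wild-type replicate 1, -0.21 without wild-type replicate 2 and -0.28 without mutant replicate 2. Replicates of both groups differed beyond counting error (exact binomial test, adjusted p = 0.00137 in wild-type and 4.39e-08 in mutant libraries).

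NGFR, which encodes p75, had the lowest fitted value of the 6 genes and low counts. It was counted 33 and 52 times in the wild-type and 19 and 25 times in the mutant libraries. These were 2.49 and 4.23 against 1.45 and 1.86 CPM. Both mutant libraries were below both wild-type libraries, as for 21.8% of all genes tested. Group means were 3.36 ± 1.23 CPM for wild-type and 1.65 ± 0.286 CPM for mutant (SD, n = 2 each). The log2 fold change was -1.01 (SE 0.41, 95% interval -1.85 to -0.18). It had an unadjusted p of 0.0185 in the edgeR test across all genes and did not pass after adjustment (adjusted p = 0.238). Summed over libraries, 44 mutant and 85 wild-type counts gave a ratio of 0.497 with an exact 95% counting interval of 0.338 to 0.724. That interval covers counting error only. The wild-type libraries differed beyond counting error, with replicate 2 at 1.70 times replicate 1 (exact binomial test, adjusted p = 0.0337). Wild-type replicate 2 moved the value most: leaving it out gave -0.59 (adjusted p = 0.713), and leaving out wild-type replicate 1 gave -1.35 (adjusted p = 0.0978).

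NGFR is known from several sparse cell types of the forebrain and its coverings, so their markers were read beside it. The 6 genes of basal forebrain cholinergic neurons summed to 4.60 and 6.84 CPM in the wild-type and 6.11 and 8.09 CPM in the mutant libraries, and 0 of the 5 tested passed. The 5 subplate neuron genes summed to 169 and 177 against 156 and 170 CPM, with 0 of 5 called. The 6 fibroblast genes of meninges and vessels summed to 147 and 242 against 199 and 162 CPM, with 0 of 6 called. Wild-type replicate 2 was the highest there as it was for NGFR. The lowest was wild-type replicate 1, while NGFR was lowest in mutant replicate 1. LUM and SLC6A13 were highest in mutant replicate 1, and the other genes of this list in wild-type replicate 2. The 5 Schwann cell genes summed to 37.0 and 34.7 against 33.4 and 32.7 CPM, and 1 of them was at 0 in all libraries. The part of these cells in the NGFR values was not tested.

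SORT1, the sorting receptor that joins p75 at the cell surface and carries BDNF into secretory vesicles, was nearly level in 3 of the 4 libraries. It was counted 2944 and 2790 times in the wild-type and 2470 and 3019 times in the mutant libraries, or 222 and 227 against 189 and 224 CPM. Mutant replicate 1 was the low value, and mutant replicate 2 lay between the wild-type libraries. Its change was -0.12 on the log2 scale (SE 0.12, 95% interval -0.36 to 0.12) and missed the threshold (edgeR adjusted p = 0.721). Its size rested on mutant replicate 1, since it was -0.00387 without that library and -0.25 without mutant replicate 2.

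**Figure D2:**
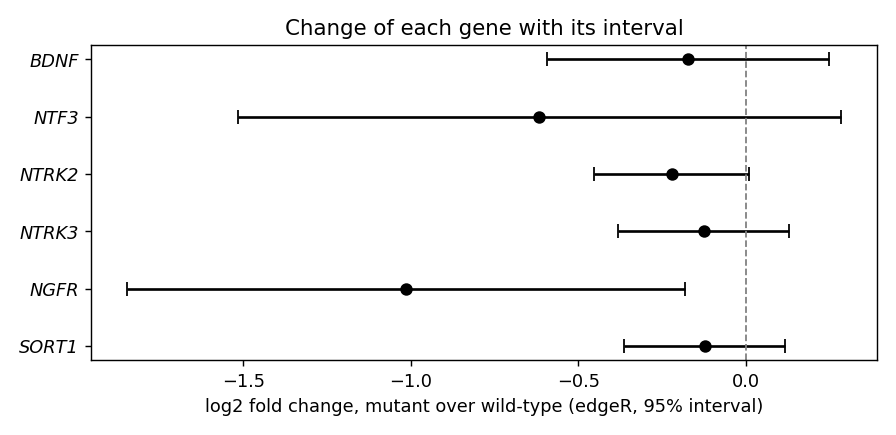
Log2 fold change of each gene, mutant over wild-type (horizontal axis), from edgeR with its 95% interval. The intervals of BDNF, NTF3, NTRK2, NTRK3 and SORT1 include 0, that of NGFR runs from -1.85 to -0.18 before any adjustment for the number of genes, and the 2 rare genes NTF3 and NGFR have the widest intervals.

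**Figure D3:**
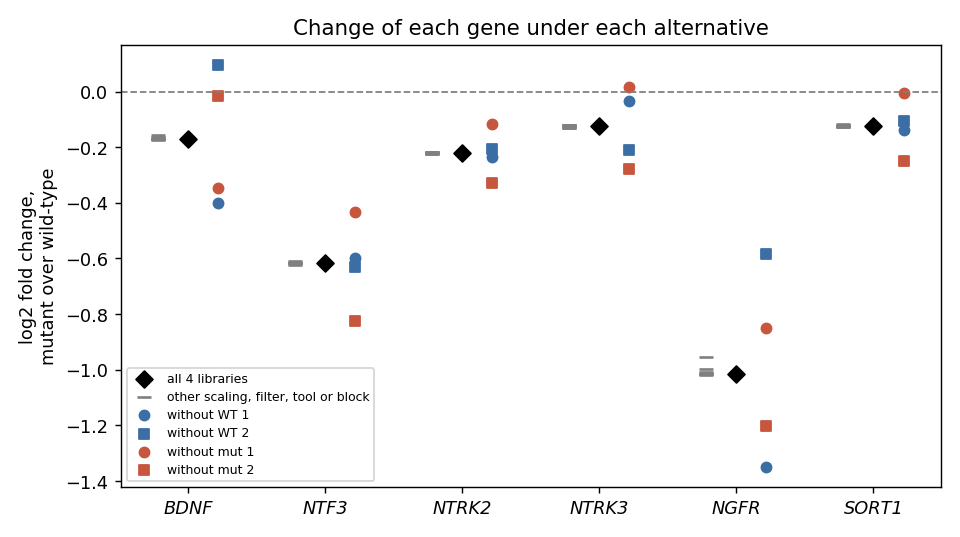
Log2 fold change of each gene (vertical axis) with all 4 libraries (diamonds), under other scalings, filters, tools and a replicate block (grey dashes), and with each library left out (coloured points). The grey dashes lie close to the diamonds, while leaving out a library moves BDNF between -0.40 and 0.10 and NGFR between -1.35 and -0.59.

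Ratios taken within a library do not depend on how libraries are scaled, and they were read as a description with no test, because 2 against 2 libraries cannot pass an exact test. Per 100 counts of NTRK2, NGFR had 0.456 and 0.762 counts in the wild-type and 0.332 and 0.366 in the mutant libraries. Per 100 counts of NTRK3 it was 1.82 and 3.50 against 1.37 and 1.43. The mutant libraries were thus below the wild-type libraries in both ratios of p75 to a TRK receptor, and closer to each other than the wild-type libraries were. Both ratios share the NGFR counts (33 and 52 in the wild-type, 19 and 25 in the mutant libraries), which are low, so they are not separate observations. As CPM, 21.8% of all genes tested had both mutant libraries below both wild-type libraries. BDNF per 100 counts of its receptor NTRK2 was 2.21 and 3.06 in the wild-type and 3.28 and 2.25 in the mutant libraries, and the ratio of NTRK2 to NTRK3 was 3.99 and 4.60 against 4.13 and 3.90. Both of these ratios overlapped between the groups. The ratio of SORT1 to NTRK2, chosen after its values were seen, was 0.407 and 0.409 against 0.431 and 0.442, higher in both mutant libraries.

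Markers of the glial cells that carry truncated TrkB were lower in the mutant libraries, beside the lower NTRK2 values. The 8 astrocyte genes summed to 4432 and 4277 CPM in the wild-type and 3124 and 3470 CPM in the mutant libraries. SLC1A2 (mean 1907 CPM in wild-type and 1252 CPM in mutant libraries) and GFAP (1138 and 867 CPM) made up most of this sum. Mutant replicate 1 was the lowest library for this sum, as for NTRK2, but not for each of the 8 genes. All 8 had a value below 0 (median log2 fold change -0.31), and 1 of them fell, the glutamate transporter SLC1A2 (log2 fold change -0.61, SE 0.11, edgeR adjusted p = 9.68e-04). Of all genes tested, 50.7% had a value below 0, 1.57% fell and 0.661% rose, the background for each marker list here. The 6 oligodendrocyte precursor genes summed to 591 and 629 against 469 and 483 CPM, with 2 of 6 fallen. The 8 oligodendrocyte genes summed to 3408 and 3379 against 1294 and 1242 CPM, with 8 of 8 fallen. The 7 glutamatergic neuron genes summed to 1973 and 2235 against 2331 and 2315 CPM, with 1 of 7 risen (NEUROD6, log2 fold change 0.41, SE 0.11, adjusted p = 0.0469, not called when any 1 library was left out). The 6 GABA neuron genes summed to 624 and 661 against 590 and 577 CPM, with 1 of 6 fallen (GAD2, a GABA-making enzyme, -0.46, SE 0.12, adjusted p = 0.0352, called without wild-type replicate 1 but not without any other library). The 6 microglial genes summed to 96.5 and 96.6 against 78.5 and 52.3 CPM, with a median of -0.57 and 2 of 6 fallen (CSF1R at -0.84 and CX3CR1 at -0.71). Neither was called without mutant replicate 2, and CX3CR1 was also not called without wild-type replicate 2 or by DESeq2. In bulk tissue, fewer cells of a type and less RNA per cell cannot be told apart. In ratios chosen after the values were seen, NTRK2 was counted 12.3 and 13.0 times per 100 astrocyte marker counts in the wild-type and 14.0 and 14.6 times in the mutant libraries. Per 100 counts of the glutamatergic markers it was 27.7 and 24.9 against 18.8 and 21.9. Per 100 counts of the GABA neuron markers it was 87.4 and 84.1 against 74.0 and 87.9. NTRK2 thus lay above wild-type when read against the summed astrocyte genes, below it against glutamatergic genes and overlapped against GABA neuron genes. The reading against the astrocyte sum did not hold for each of its genes. AQP4 (-0.10), SLC1A3 (-0.14) and SOX9 (-0.07) had smaller log2 fold changes than NTRK2 (-0.22), and the other astrocyte genes had lower values than NTRK2. The part of any cell type in its level was not tested.

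**Figure D4:**
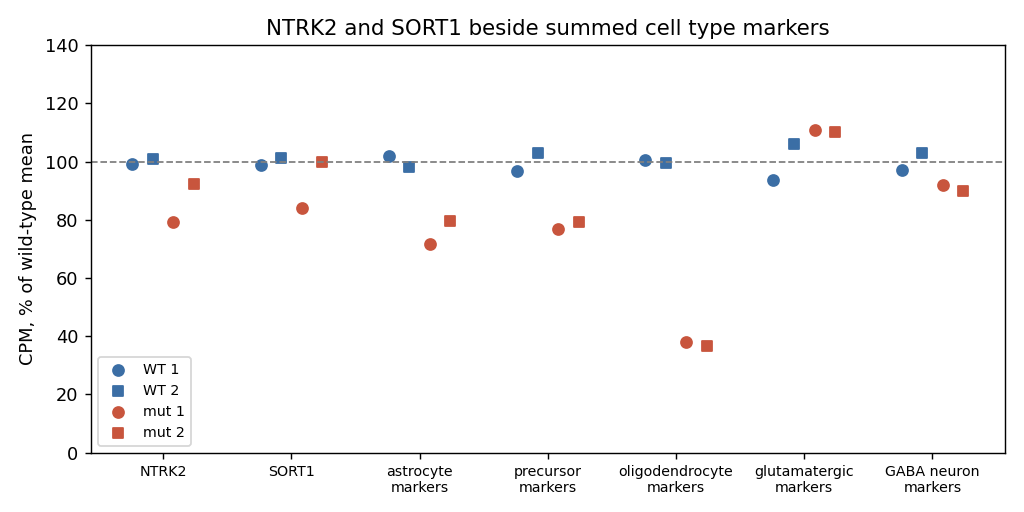
CPM of NTRK2 and SORT1 and summed CPM of marker genes, each as a percentage of its wild-type mean (vertical axis), in wild-type (WT) and mutant (mut) libraries. NTRK2 was at 79.4% and 92.2% of the wild-type mean in the mutant libraries. In each mutant library it lay between the summed astrocyte markers (71.7% and 79.7%) and the summed glutamatergic markers (110.8% and 110.0%). SLC1A2 and GFAP make up most of the astrocyte sum.

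The wider pathway was read from 6 lists of 91 genes, of which 88 were tested, and 8 of these fell and 0 rose. In the background 1.57% of all genes tested fell and 0.661% rose. Of the 8 that fell, 6 were in the list of genes that BDNF can induce. Several genes of that list were already known to be low in these libraries when it was made, so the total is no independent evidence. The list of processing, sorting and release held 13 tested genes with a median log2 fold change of -0.17, where 1 fell and 0 rose. The median was -0.06 with wild-type replicate 2 left out and -0.11 with mutant replicate 1 left out. The gene that fell was PLAT, tissue plasminogen activator, a protease that generates plasmin and so can convert the BDNF precursor outside the cell. PLAT was counted 354 and 312 times in the wild-type and 180 and 246 times in the mutant libraries (log2 fold change -0.70, SE 0.18, edgeR adjusted p = 0.0227). Its groups did not overlap, but the call was lost with wild-type replicate 1 left out (adjusted p = 0.0667), with mutant replicate 1 left out (0.385) and by DESeq2 (0.111). Groups without overlap and with the mutant lower were seen for 21.8% of all genes tested. The 4 relatives of sortilin in the list, chosen for that relation after their values were seen, had values below 0 and did not pass: SORL1 at -0.36 (adjusted p = 0.258), SORCS1 at -0.27, SORCS2 at -0.25 and SORCS3 at -0.25.

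Other ligands and receptors of the system gave no call, with 0 of 3 tested genes past the threshold by edgeR. At an unadjusted p under 0.05 there was 1, where 13.4% of all genes tested were under that level. The Nogo receptor RTN4R, a partner of p75, was at a log2 fold change of -0.35 (adjusted p = 0.252), -0.58 without wild-type replicate 1 (adjusted p = 0.0207, the call of this list in that fit) and -0.08 without wild-type replicate 2, and LINGO1, the third subunit of that complex, at -0.16 (adjusted p = 0.598). NTF4, the other ligand of TrkB, held 2, 1, 0 and 0 counts and was not tested.

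Downstream of the TRK receptors, 1 of 27 adaptors and kinases fell and 0 rose, where 1.57% of all genes tested fell and 0.661% rose. The list median of -0.07 came to -0.00204 with wild-type replicate 2 left out and -0.03 with mutant replicate 1 left out. The gene that fell was GAB1, a docking protein that recruits PI3K and the phosphatase SHP2. GAB1 was counted 405 and 346 times in the wild-type and 220 and 274 times in the mutant libraries (log2 fold change -0.66, SE 0.17, edgeR adjusted p = 0.0231). The call was lost with wild-type replicate 1 left out (adjusted p = 0.101), with mutant replicate 1 left out (0.307) and by DESeq2 (0.101). Among the 8 tested effectors of p75 none passed by edgeR and 1 was at an unadjusted p under 0.05, where 13.4% of all genes tested were. The list median was 0.04. That median turned to -0.05 with mutant replicate 1 left out, and was 0.11 with wild-type replicate 1 and 0.17 with mutant replicate 2 left out. The ubiquitin ligase TRAF6 was at 0.55 (SE 0.23, adjusted p = 0.242) and the kinase IRAK1 at 0.26 (adjusted p = 0.378).

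**Figure D5:**
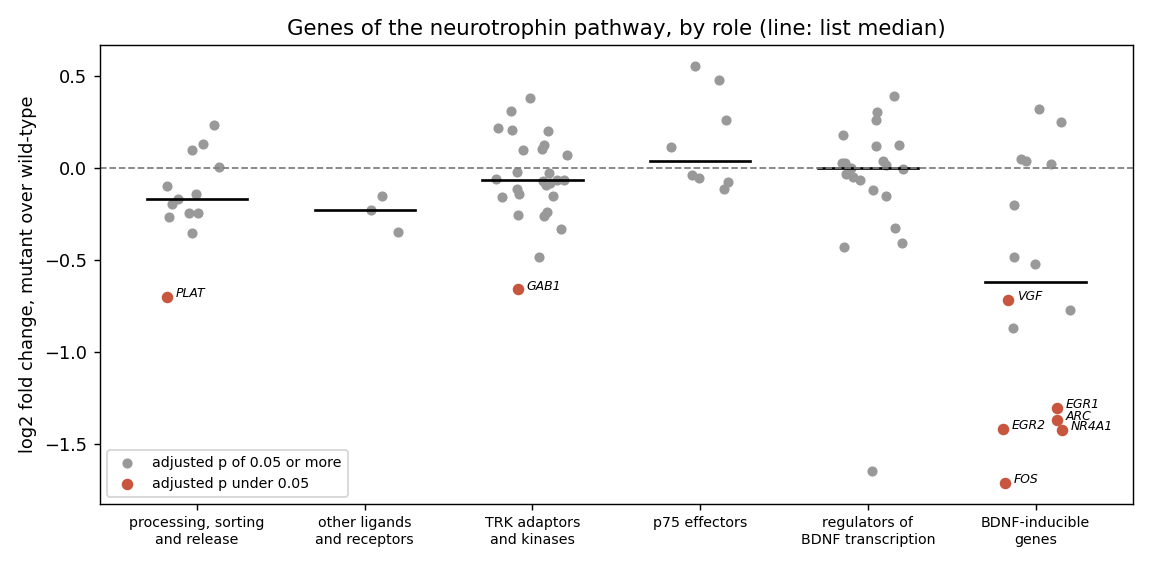
Log2 fold change, mutant over wild-type (vertical axis), of the 88 tested genes of the neurotrophin pathway by role; red points have an edgeR adjusted p under 0.05 and lines are list medians. The 8 red points all lie below 0, and 6 of them are in the list of genes that BDNF can induce.

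Regulators of BDNF transcription gave 0 calls by edgeR among 21 tested genes. At an unadjusted p under 0.05 there were 5, where 13.4% of all genes tested were under that level. The list median was -0.00375. That median was above 0 with wild-type replicate 2 (0.01) or mutant replicate 1 (0.05) left out. The smallest p-values were of BHLHE40, a transcriptional repressor (log2 fold change 0.39, SE 0.13, adjusted p = 0.126), and the histone deacetylase HDAC2 (0.31, SE 0.12, adjusted p = 0.220). NPAS4, an activity-induced factor named after its values were seen, was counted 114 and 290 times in the wild-type and 63 and 73 times in the mutant libraries (-1.65, SE 0.58, adjusted p = 0.364). It was called lower by DESeq2 (adjusted p = 0.00685), with robust = FALSE (0.00262), without a low-count filter (3.50e-08) and without wild-type replicate 1 (-2.20, adjusted p = 1.70e-15). It was not called with RLE scaling (adjusted p = 0.366), upper quartile scaling (0.341), a filter at a mean of 1 CPM or by limma-voom (0.580). Nor was it called without wild-type replicate 2, the library with 290 counts (-0.75), or without either mutant library. In all NPAS4 was called in 5 of the 12 alternatives, a replicate block among them.

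Of 16 genes that BDNF is known to induce in neurons, 6 fell and 0 rose, where 1.57% of all genes tested fell and 0.661% rose. The list median was -0.62 (-0.35 with wild-type replicate 2 left out). Neuronal activity induces most of these 16 genes as well. Several were already known to be low in these libraries when the list was made, so the count is no independent evidence. VGF, a neuropeptide precursor of secretory granules, was counted 3106 and 2263 times in the wild-type and 1831 and 1548 times in the mutant libraries. It was 209 ± 35.4 against 127 ± 17.6 CPM (SD, n = 2 each; log2 fold change -0.72, SE 0.13, edgeR adjusted p = 0.00143), and the call was lost without mutant replicate 2 (adjusted p = 0.0593). The other 5 encode activity-induced proteins: EGR1 (-1.31, SE 0.22), ARC (-1.37, SE 0.23), FOS (-1.71, SE 0.24), NR4A1 (-1.43, SE 0.15) and EGR2 (-1.42, SE 0.31). NR4A1 kept its call whichever of the 4 libraries was dropped. EGR1 and ARC lost theirs with either mutant library left out, and FOS and EGR2 with mutant replicate 2 left out. The values of EGR1 (-1.26 and -1.35) and ARC (-1.36 and -1.38) without mutant replicates 1 and 2 were near those with all libraries. EGR2 also lost its call by DESeq2 (adjusted p = 0.0602) and ARC by limma-voom (0.0509). Leaving out mutant replicate 2 reduced the number fallen to 1, and leaving out mutant replicate 1 to 4. It was 9 and 7 when wild-type replicates 1 and 2 were left out. Of the 10 that did not pass, 5 had values above 0, the highest NPY at 0.32 (unadjusted p = 0.0165 in the edgeR fit across all genes, adjusted p = 0.221). BDNF itself, which neuronal activity also induces, was at -0.17 in the same fit.

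The genes whose pattern over the 4 libraries was most like that of NGFR, the member with the smallest p, were found by the root mean square difference of log2 CPM centred on each gene's mean. Among 10262 genes with a symbol and at least 10 CPM on average, the nearest were the cadherin CDH22 at a distance of 0.0685, the inositol kinase ITPKA at 0.0830, the phosphatase DUSP1 at 0.115, the kinase SIK1 at 0.137 and the transcription factor EGR4 at 0.138. All 5 were highest in wild-type replicate 2 and lowest in mutant replicate 1, as NGFR was, which follows from how they were chosen. The measure rests on 4 libraries and on 19 to 52 counts of NGFR in each.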

How the data were processed

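RNA was measured by poly(A)-selected, directional RNA-seq in 2 wild-type and 2 FMR1 mutant libraries, grouped by the labels. The authors deposited raw counts per gene, not normalized. Trimmomatic 0.38 and STAR 2.7.10a are named in the submitters' processing notes. No source used here names the counter, build or annotation, or says whether strand was used. In R 4.3.3, edgeR 4.0.16 was run with filterByExpr (minimum count 10), TMM scaling and the quasi-likelihood test (robust = TRUE), with Benjamini-Hochberg adjustment over 16956 genes at 0.05. Residual degrees of freedom were 2 and the median prior degrees of freedom were 31.6. The variance of a typical gene thus rested mostly on values shared across genes. The SE is the log2 fold change divided by the square root of F. CPM use TMM-scaled library sizes. Alternatives were RLE and upper quartile scaling, DESeq2 1.42.0, limma-voom (limma 3.58.1), robust = FALSE, other filters, a replicate block and leaving out each library on the same genes. Pathway genes were named when they passed, or else as the 2 with the smallest p per list; other named genes were chosen for their role or after their values were seen. The 6 genes and all lists were chosen with earlier results of these data known. Gene lengths of the counted annotation were not used here, so levels were compared between libraries and not between genes. A few listed genes are not reported here by name and stay in all counts. No sequences were analysed here.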

Additional observations from a re-analysis of the deposited data

How the results depend on the processing

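None of the 6 genes passed under any of the 12 alternatives by edgeR, DESeq2 or limma-voom. NTF3, NTRK2, NGFR and SORT1 stayed below 0 in all 12. BDNF was at 0.10 without wild-type replicate 2 and NTRK3 at 0.0149 without mutant replicate 1, and the cause was not tested. With 1 library left out, BDNF ranged from -0.40 to 0.10, NTF3 from -0.82 to -0.43, NTRK2 from -0.33 to -0.12, NTRK3 from -0.28 to 0.0149, NGFR from -1.35 to -0.59 and SORT1 from -0.25 to -0.00387; the lone library is then assumed to vary like the other group. The pathway genes past the threshold numbered 8, 13 without a low-count filter, and 3 to 11 with 1 library left out. All genes past the threshold numbered 378, 244 by DESeq2, which ran on all 35205 rows, 633 without a low-count filter, and 163 to 562 with 1 library left out. The labels do not say whether the replicate numbers pair the libraries. The replicate differences of the groups correlated across genes at r = 0.0275, which alone cannot settle whether libraries were paired. A replicate block gave 0 of the 6 genes, 10 pathway genes and 493 genes in all (NPAS4 among the pathway genes, at -1.53). In that fit BDNF was at -0.16, NTF3 at -0.62, NTRK2 at -0.23, NTRK3 at -0.13, NGFR at -0.996 and SORT1 at -0.13. Depth limits NTF3 and NGFR most, at 17 to 52 counts a library.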

Other observations

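At an unadjusted p under 0.05 in the edgeR fit, 5 of the 27 TRK adaptors and kinases differed between the genotypes, where 13.4% of all genes tested did. The exchange factors SOS1 (log2 fold change -0.33, adjusted p = 0.246) and SOS2 (-0.49, adjusted p = 0.119), which load Ras with GTP, and the kinase MAP2K1 (-0.25, adjusted p = 0.343) had lower values, as did GAB1. PLCG1, the phospholipase C gamma that binds TrkB directly, had a higher value, with 853 and 906 counts in the wild-type and 1105 and 1288 counts in the mutant libraries (0.38, SE 0.13, adjusted p = 0.126). These 4, chosen after their values were seen, did not pass under any of the 12 alternatives by edgeR, DESeq2 or limma-voom.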
